A study of Mus musculus with 15 samples.

Results

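Genes for voltage-gated sodium channels, potassium channels, HCN channels and voltage-gated calcium channels, with their auxiliary subunits, were followed in the mouse substantia nigra after viral delivery of the microRNA miR-181. Members were chosen by symbol and abundance. The symbol had to begin with Kcn, Cacn or Hcn and a digit, or to be Scn with digits and then a or b. The mean had to be at least 1 over the libraries of both deposited tables. Of 138 genes with such a symbol, 110 were members, out of 36265 genes with values. They comprised 10 of 14 Scn genes, 73 of 94 Kcn genes, all 4 Hcn genes and 23 of 26 Cacn genes. The means that chose the members are a description and were not tested. Just inside the threshold lay Kcnq1, with a mean of 1.03 in the GFP table. Just outside lay Kcnn4, with 1.19 in the miR-181 table but 0.451 in the GFP table, and Scn7a, with 0.980 and 0.892.

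C57Bl/6J mice had been injected on 1 side, and tissue was taken 3 weeks later. The virus, an adeno-associated virus (AAV), used the human synapsin promoter hSYN1, which acts in neurons. In 3 mice it was AAV-hSYN1-miR-181 at 1.65e10 vector genomes. In the other set it was AAV-hSYN1-GFP, with green fluorescent protein, at 1e10 vector genomes. The opposite side of each mouse received no injection, so no mouse supplied a side injected without virus. The 8 mice gave 15 libraries, 6 in the miR-181 set (3 per side) and 9 in the GFP set (4 from injected and 5 from uninjected sides). GFP mouse 5 gave an uninjected library only. Vector, dose, library set, sequencer and read length (75 bases in the miR-181 set, 50 in the GFP set) differ together between the 2 sets, and their tables were normalized separately, so these cannot be told apart. Replicates within a group are different mice.

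Voltage-gated sodium channels carry the rising phase of the action potential, and potassium channels repolarize the membrane and set its resting level. HCN channels open on hyperpolarization and contribute to pacemaking, the regular firing of dopamine neurons and of the fast GABA neurons beside them. Voltage-gated calcium channels admit calcium for transmitter release and for pacemaking. A microRNA guides a silencing complex to messenger RNAs, mostly by pairing of its seed, bases 2 to 8, with sites in the 3' untranslated region (UTR).

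Mature miR-181a and miR-181b are shown because all 110 channel UTRs were searched with their shared seed, in capitals (RefSeq, GRCm38.p6); the labels do not say which family member the virus carried.
mmu-miR-181a-5p: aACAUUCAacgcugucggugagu
mmu-miR-181b-5p: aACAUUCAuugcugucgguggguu
A match of the TGAATGT form pairs with bases 2 to 8. The other 7-base form is GAATGTA, and where both overlap the match is the 8-base TGAATGTA. They were searched on the sense strand of the longest annotated UTR of each gene. Sites of channel genes that the results below turn on are printed 5′ to 3′ as windows of 22 bases, with the match in capitals (GENCODE M21, GRCm38). Hcn2 and Scn8a are the only genes called lower that hold a match, and Scn4b and Kcnj6 had large fitted decreases.
Hcn2, chr10:79736008-79736029, plus strand: ccccgccgtcgccaTGAATGTA
Scn8a, chr15:101045291-101045312, plus strand: gtgtgtgtgtgtgaaGAATGTA
Scn8a, chr15:101045798-101045819, plus strand: atgcttgagaaatgaGAATGTA
Scn4b, chr9:45153102-45153123, plus strand: ccacggattgtgttaGAATGTA
Kcnj6, chr16:94822812-94822833, minus strand: gccaacggtggccgTGAATGTA

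Values below are normalized abundances, TPM (an abundance scaled for transcript length) over a size factor, and they keep no record of sequencing depth. Changes are log2(value + 0.5) on the injected side minus the uninjected side, with the standard error of a limma fit, and a gene was called at a Benjamini-Hochberg adjusted p under 0.05 over all genes tested. In miR-181 mice 230 of 15453 genes were called lower and 678 higher. The higher ones made up 74.7% of calls, 57.5% when each library was centred on its median, and 84.9% when it was centred on pan-neuronal markers. The 13 dopamine neuron markers, which define the labelled tissue, summed to between 1201 and 2180 in miR-181 libraries and between 1949 and 3122 in GFP libraries. Serotonin neuron markers summed to 37.8 to 92.7 in the miR-181 table and 0.342 to 1.53 in the GFP table. Marker levels thus also differ between the 2 sets, together with vector and dose. Their part in comparisons between the sets was not tested. Injected mouse 2 of the miR-181 set stood apart from its group. Its 15 pan-neuronal markers summed to 6256, against 7145 and 6841 in the other injected libraries and 7457 to 7642 on the uninjected sides. The median change of dopamine neuron markers was -0.88 in mouse 2, 0.02 in mouse 1 and 0.05 in mouse 3. The 7 microglial markers summed to 1101 in that library, 622 to 780 in the other injected ones and 277 to 295 on the uninjected sides. In GFP mice they summed to 400 to 515 on injected and 212 to 285 on uninjected sides. T cell markers summed to between 10.8 and 58.0 on miR-181 injected sides, the highest again in mouse 2, and to between 1.71 and 3.62 on uninjected sides. In bulk tissue, fewer cells of a type and less RNA per cell cannot be told apart.

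Channel transcripts were lower on the miR-181 side across the 4 subfamilies, mostly by modest amounts. The 110 members together summed to 3714, 3294 and 3582 on the injected sides of mice 1 to 3, and to 4184, 4123 and 4224 on the uninjected sides. Every injected sum lay below every uninjected one, and the mean decrease was 15.5%. In GFP mice the sums were 3863 to 3984 on 4 injected sides and 3834 to 4219 on 5 uninjected sides. These ranges overlap, and the mean decrease was 2.50%. The lowest uninjected sum was that of GFP mouse 1, a library in which 6 pituitary markers summed to 50092. In the injected library of that mouse those markers summed to 2451. The remaining uninjected sums ran from 3956.5 to 4219, a range that still overlaps. The part of pituitary RNA in the GFP values was not tested. Of the 15 pan-neuronal markers 0 were called by limma, and 10 were lower at an unadjusted p under 0.05. Their summed level was lower by 11.0% on the miR-181 side and by 1.18% on the GFP side. As a percentage of the pan-neuronal sum, the channel sum was 52.3 ± 0.34 (SD, n = 3) on injected and 55.1 ± 1.06 (SD, n = 3) on uninjected sides of miR-181 mice, between 52.0 and 52.7 against 54.0 and 56.1. It was 51.8 ± 0.87 (SD, n = 4) and 52.5 ± 1.48 (SD, n = 5) in GFP mice. The part of neuron markers in the changes of single channel genes was not tested beyond the alternative scaling by those markers.

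In miR-181 mice 6 members were called lower and 0 higher by limma. They stand beside 1.49% of all genes called lower and 4.39% called higher. At an unadjusted p under 0.05, 42 members were lower and 2 higher, where 10.7% and 12.8% of all genes were. Fitted changes were below 0 for 91 of 110 members, beside 49.2% of all genes and 14 of the 15 pan-neuronal markers. The median over members was -0.18, that over all genes tested was 0.00 and that over the pan-neuronal markers was -0.16. Every injected library lay below every uninjected one for 46 members, where 14.5% of all genes and 11 of the 15 pan-neuronal markers did so. Every injected library lay above every uninjected one for 4 members, where 16% of all genes and 0 of those markers did. The members' median change was -0.12, -0.24 and -0.16 in mice 1, 2 and 3, so mouse 2 showed the largest shift and mouse 1 the smallest. The subfamily medians were -0.20 for Scn, -0.19 for Kcn, -0.31 for Hcn and -0.16 for Cacn, and each stayed below 0 under the 3 other scalings tried.

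**Figure D1:**
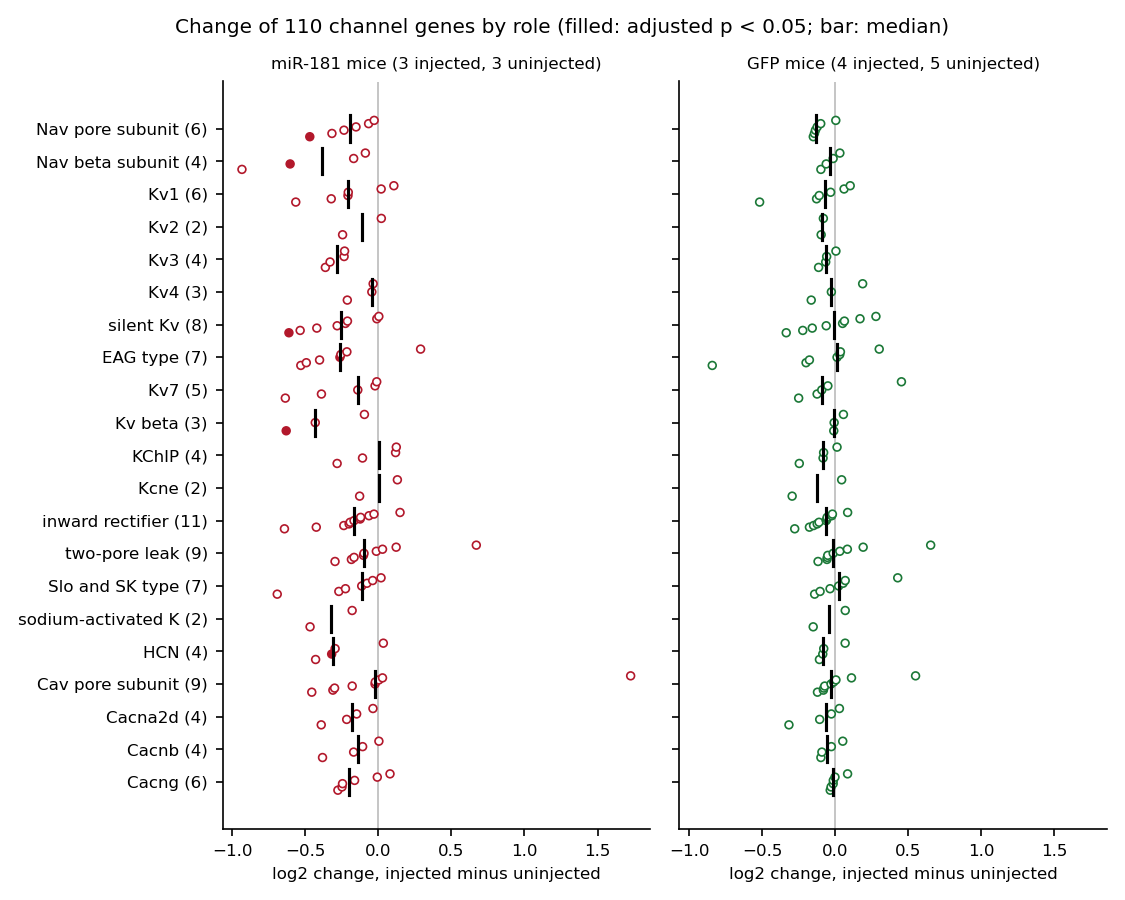
Log2 change, injected minus uninjected, of each of the 110 channel genes (circles, filled at a limma adjusted p under 0.05) by role, in miR-181 mice (left) and GFP mice (right), with the number of genes in parentheses and the median as a bar. Filled circles appear on the left only, 6 in all and all below 0; Cacna1s at 1.73 is the rightmost open circle.

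Among sodium channels, pore subunits form the ion path and beta subunits, single-pass adhesion proteins, tune gating and placement. Scn8a, which encodes Nav1.6, the main pore subunit at the axon initial segment and nodes of Ranvier (chr15:100869858-101045938, plus strand), was called lower. It read 58.1, 44.0 and 51.6 on injected and 70.2, 67.2 and 74.7 on uninjected sides. Mouse 2 had the lowest value, and no injected value reached the uninjected range. The log2 change was -0.47 ± 0.10 (SE, limma adjusted p = 0.0466), against -0.10 ± 0.06 in GFP mice. Other pore subunits were lower by less. Scn2a, the Nav1.2 gene, read 51.6, 47.0 and 52.5 against 56.7, 55.0 and 56.2 uninjected, without overlap, for a change of -0.15 ± 0.06 that was not called (limma adjusted p = 0.166). Scn1a, the Nav1.1 gene of fast-spiking interneurons, changed by -0.23 ± 0.11 (limma adjusted p = 0.260) with a GFP change of -0.14 ± 0.06, and its groups overlapped in miR-181 mice. All 6 pore subunits had a fitted change below 0 in miR-181 mice, with a median of -0.19. When libraries were centred on pan-neuronal markers, 5 of 6 did. In GFP mice 5 of 6 were fitted below 0 in the main fit, with a median of -0.13. The shares of all genes below 0 were 49.2% in miR-181 mice and 48.2% in GFP mice.

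Scn4b, whose beta 4 subunit supports the resurgent sodium current of fast-firing neurons, had the largest fitted decrease of any member but missed the threshold. It read 65.2, 35.2 and 56.7 on injected and 83.2, 96.9 and 114 on uninjected sides. Each group was widely spread, without overlap. The log2 change was -0.93 ± 0.23 (SE, limma adjusted p = 0.0638), and -0.10 ± 0.04 in GFP mice. Within mice the change ran from -0.35 in mouse 1 to -1.45 in mouse 2. Scn3b, which holds an 8-base seed match and was selected after its values were seen, changed by -0.17 ± 0.10.

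**Figure D2:**
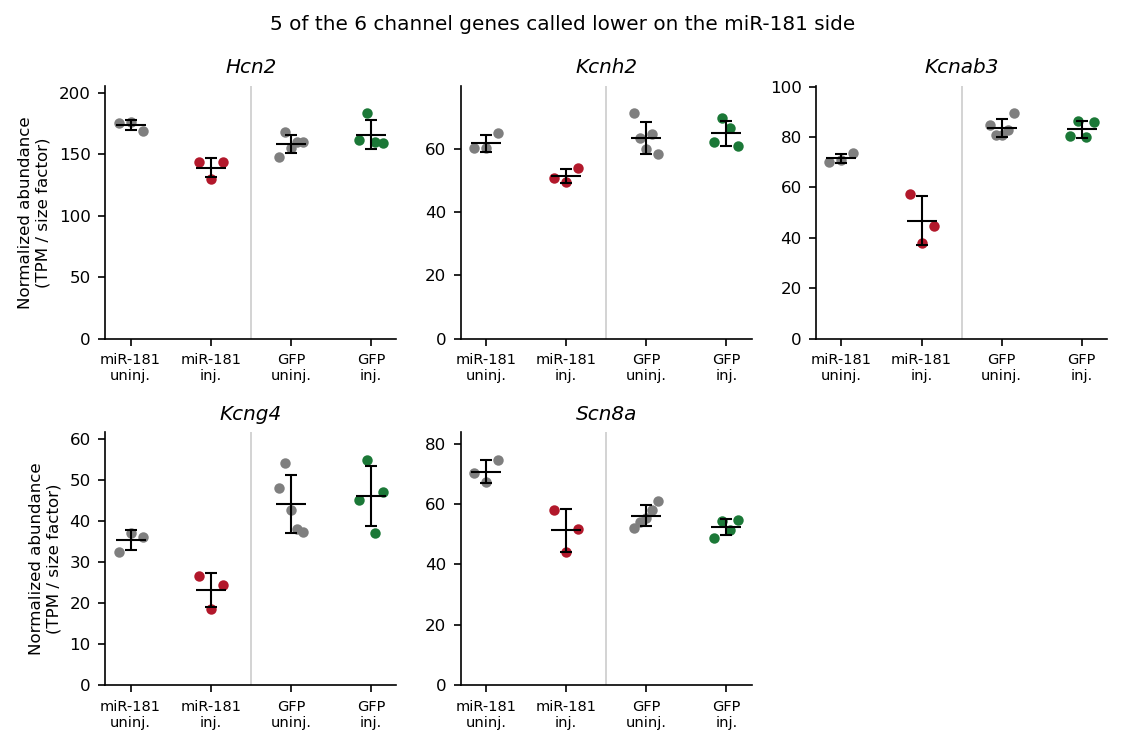
Normalized abundance (TPM divided by a size factor) of 5 of the 6 channel genes called lower on the miR-181 side, for 3 uninjected and 3 injected sides of miR-181 mice and 5 uninjected and 4 injected sides of GFP mice. Each point is a library and bars are mean ± SD; injected miR-181 points lie below all uninjected miR-181 points in each panel, and GFP groups overlap.

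Potassium channels made up most members, and 3 of 73 were called lower, with a subfamily median of -0.19. Among voltage-gated pore subunits, the Kv1 genes shape threshold and axonal repolarization. Kcna2 read 78.8, 67.3 and 78.5 on injected and 86.3, 91.4 and 104 on uninjected sides. All 3 injected values were the lower ones, and the change was -0.32 ± 0.09 (SE, limma adjusted p = 0.0897). In GFP mice Kcna2 changed by -0.13 ± 0.05 (not called). Kcna1 changed by -0.21 ± 0.07 and Kcna3 by -0.21 ± 0.10, neither called. Kcna4 changed by -0.56 ± 0.14 (limma adjusted p = 0.0649), but with -0.52 ± 0.28 in GFP mice, and the difference between the sets was 0.01. Kcna6 stood on the other side of 0. It read 81.6, 87.5 and 82.9 on injected and 78.0, 79.4 and 76.5 on uninjected sides, a change of 0.11 ± 0.05, with 0.10 ± 0.04 in GFP mice. Kcna4 and Kcna6 were selected after their values were seen.

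The Kv3 channels permit firing at high rates, and all 4 of their genes had fitted changes below 0 on the miR-181 side, under each scaling tried. In GFP mice 3 of the 4 were fitted below 0. None was called. Kcnc1, the Kv3.1 gene, read 136, 118 and 126 on injected and 143, 148 and 154 on uninjected sides, without overlap. Its change was -0.23 ± 0.06 (SE, limma adjusted p = 0.0836). In GFP mice its injected values of 138 to 142 also lay below its uninjected values of 143 to 150, by less, for a change of -0.06 ± 0.03. Kcnc4, selected after its values were seen, changed by -0.33 ± 0.09 in miR-181 mice and was called when mice were blocked (limma adjusted p = 0.0424). Kcnd3, the Kv4.3 gene of the A-type current that slows pacemaking, changed by -0.21 ± 0.13 (limma adjusted p = 0.368) with overlapping groups.

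Silent Kv subunits make no channel alone but modify other Kv channels. Kcng4 (chr8:119623854-119635680, minus strand) was the one called among 8. It read 26.4, 18.5 and 24.3 on injected and 32.5, 37.1 and 36.0 on uninjected sides. Injected values were all lower, with a change of -0.61 ± 0.13 (SE, limma adjusted p = 0.0458). Blocking on mouse ended this call (limma adjusted p = 0.0771). GFP mice read 37.0 to 54.9 on injected and 37.3 to 54.2 on uninjected sides, nearly the same range, and the change was 0.06 ± 0.13.

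Kcnh2, the ERG1 gene of the EAG family, whose current helps neurons recover from depolarization (chr5:24319589-24351604, minus strand), was called with the smallest shift of the 6 genes. It read 50.8, 49.5 and 53.7 on injected and 60.0, 60.2 and 64.8 on uninjected sides. The groups did not overlap and the spread was narrow, for a change of -0.26 ± 0.06 (SE, limma adjusted p = 0.0432), against 0.03 ± 0.06 in GFP mice. Within mice it changed by -0.24, -0.28 and -0.27, the most even of the 6. Kcnh1, selected after its values were seen, changed by -0.53 ± 0.15 (limma adjusted p = 0.0858). Kcnh8, a low gene, read 0.352 to 0.721 on GFP injected sides and 0.789 to 3.03 on uninjected sides, without overlap, and its GFP change of -0.84 ± 0.30 was not called (limma adjusted p = 0.348). It had reached the abundance threshold in the GFP table through the uninjected side, so that direction is partly set by its selection.

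The Kv7 channels carry the M current, which restrains repetitive firing. Kcnq5, selected after its values were seen, read 2.78, 2.73 and 3.56 on injected and 4.51, 5.20 and 5.15 on uninjected sides. They did not overlap, and the change of -0.64 ± 0.14 just missed the threshold (limma adjusted p = 0.0518). In GFP mice it was -0.25 ± 0.19 with overlap.

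Cytoplasmic Kv beta subunits bind Kv1 channels and affect their trafficking and inactivation. Kcnab3 (chr11:69326258-69333042, plus strand) had the largest fitted decrease among called members. It read 57.3, 38.1 and 44.8 on injected and 70.0, 71.0 and 73.7 on uninjected sides. The uninjected values were close together and the injected ones were all lower but spread, with mouse 2 lowest. The change was -0.63 ± 0.14 (SE, limma adjusted p = 0.0455), against -0.01 ± 0.04 in GFP mice, where values ran from 79.8 to 89.5 over both sides. Blocking on mouse ended this call too (limma adjusted p = 0.0566). An antisense-named gene, Kcnab3os, overlaps this locus, and whether the quantification used strand is not given in the sources used here. Kcnab2 read 215, 160 and 184 on injected and 251, 239 and 259 on uninjected sides. No values overlapped, and the change was -0.43 ± 0.10 (SE, limma adjusted p = 0.0583). In GFP mice it was -0.01 ± 0.05. The calcium-sensing KChIP subunits of Kv4 channels showed no common direction, with 2 of 4 below 0. Kcnip3 changed by 0.12 ± 0.09, while Kcnip4, selected after its values were seen, changed by -0.28 ± 0.09.

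Among inward rectifiers, which hold the resting potential, Kcnj6 encodes GIRK2, opened by dopamine D2 and GABA-B receptors in nigral dopamine neurons. It read 17.0, 9.83 and 12.9 on injected and 20.2, 21.9 and 19.5 on uninjected sides. Injected values were all below uninjected ones, but the change of -0.64 ± 0.18 was not called (limma adjusted p = 0.0920). The change was -0.24, -1.11 and -0.57 in mice 1, 2 and 3, and -0.02 ± 0.07 in GFP mice. Kcnj10, the astrocyte channel Kir4.1, read 224, 193 and 211 on injected and 241, 232 and 243 on uninjected sides. They did not overlap, for a change of -0.19 ± 0.06 (SE, limma adjusted p = 0.117). The 6 astrocyte markers summed to 1375 to 1399 on injected and 1322 to 1368 on uninjected sides, but they did not move together. Aqp4 was called higher (0.46 ± 0.09, limma adjusted p = 0.0340), S100b changed by -0.19 ± 0.05 (limma adjusted p = 0.0744) with all injected values below the uninjected ones, and the other 4 were not called. The part of astrocytes in the Kcnj10 values was not tested. Of 11 inward rectifiers 10 were fitted below 0 in miR-181 mice and 10 in GFP mice, beside 49.2% and 48.2% of all genes. In miR-181 mice 0 were called by limma. At an unadjusted p under 0.05, 5 were lower there, where 10.7% of all genes were. The authors' deposited table holds 2 kinds of p-value, whose tests its header does not name. Adjusted over the same genes, the first called 3 of these genes lower (Kcnj6, Kcnj10 and Kcnj12) and the second 0. The shares over all genes were 5.11% and 1.96%.

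Two-pore potassium channels carry leak current. Kcnk6 (TWIK-2) was higher on both kinds of injected side. In miR-181 mice it read 3.50, 6.45 and 4.75 on injected and 2.94, 2.78 and 2.71 on uninjected sides, without overlap. In GFP mice it read 4.76, 3.38, 3.32 and 3.51 on injected and 2.14, 2.07, 1.94, 2.13 and 2.65 on uninjected sides, also without overlap. The changes were 0.67 ± 0.21 (SE, limma adjusted p = 0.118) and 0.65 ± 0.15 (SE, limma adjusted p = 0.0711), and neither was called. The difference between the sets was 0.05 ± 0.26. Microglial markers were higher on the same sides, with 6 of 7 called higher in miR-181 mice and 5 of 7 in GFP mice; their part in the Kcnk6 values was not tested. Kcnk13 changed by -0.01 ± 0.09 and 0.19 ± 0.11 in the 2 sets, with the first turning positive when libraries were centred on pan-neuronal markers.

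Large-conductance calcium-activated channels (BK) end action potentials, and the small-conductance SK channels set the pace of dopamine neurons. Kcnma1, the BK pore gene, read 31.2, 26.3 and 28.1 on injected and 34.5, 33.9 and 35.0 on uninjected sides. Injected values were again all lower, and the change of -0.27 ± 0.07 was not called (limma adjusted p = 0.0799). GFP mice showed -0.14 ± 0.05 (limma adjusted p = 0.377). Kcnn3, the SK3 gene, changed by -0.22 ± 0.13 with overlapping groups. Kcnt1, a sodium-activated channel, changed by -0.18 ± 0.06 (limma adjusted p = 0.150) without overlap of the groups.

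Hcn2 was the most abundant HCN gene, with a mean of 156 in the miR-181 table, and 1 of 4 in the subfamily was called. It lies at chr10:79716634-79736108 on the plus strand. It read 144, 130 and 144 on injected and 176, 176 and 169 on uninjected sides. The groups were tight and did not overlap, for a change of -0.32 ± 0.05 (SE, limma adjusted p = 0.0224). GFP mice read 162, 184, 160 and 159 on injected and 148, 168, 155, 160 and 160 on uninjected sides, which overlap, with a change of 0.07 ± 0.05. Hcn3, without a seed match, changed by -0.30 ± 0.12 (limma adjusted p = 0.184). Hcn4, the slowest-gating member, read 9.01, 9.34 and 9.84 against 10.1, 8.38 and 9.04. Its groups overlapped, and its change of 0.03 ± 0.10 turned negative under median centring and quantile normalization.

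Of 23 calcium channel genes 0 were called in either direction by limma in miR-181 mice, with 10 lower and 1 higher at an unadjusted p under 0.05 and a median of -0.16. The first kind of p-value of the authors' deposited table, adjusted over the same genes, called 4 of them lower (Cacna2d2, Cacnb2, Cacng2 and Cacng4). Cacng2 and Cacng4 were named after their values were seen. The same kind called 1 higher (Cacna1s), which reached the abundance threshold through the injected side and had to read higher there. The second kind called 0. The shares over all genes were 5.11% lower and 7.23% higher by the first kind, and 1.96% and 4.81% by the second. The pore subunits divided. Cacna1a, the P/Q-type gene of presynaptic release, read 49.2, 44.8 and 48.1 on injected and 57.7, 50.9 and 52.6 on uninjected sides, without overlap, and changed by -0.18 ± 0.07 (limma adjusted p = 0.166). Cacna1b, the N-type gene, changed by -0.31 ± 0.11, the R-type Cacna1e by -0.30 ± 0.10 and the T-type Cacna1i by -0.46 ± 0.17, all selected after their values were seen. When mice were blocked, Cacna1b was called (limma adjusted p = 0.0422). Cacna1d, the Cav1.3 gene of nigral pacemaking, read 23.5, 20.6 and 25.2 against 22.4, 24.6 and 20.8. These overlap, and its change was 0.03 ± 0.10; the T-type Cacna1g was at 0.00 ± 0.19. Both signs turned negative under median centring and quantile normalization.

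Cacna1s, the skeletal muscle L-type gene, had the largest fitted increase of any member. It read 1.89, 4.57 and 2.68 on injected and 0.134, 0.689 and 0.909 on uninjected sides, without overlap. The change was 1.73 ± 0.40 (SE, limma adjusted p = 0.0556), and 0.55 ± 0.24 (SE, limma adjusted p = 0.513) in GFP mice, where the sides overlap. When mice were blocked, it was called in miR-181 mice (limma adjusted p = 0.0381). Its uninjected mean was 0.577 in the miR-181 table and 0.9997 in the GFP table. In both tables it thus reached the abundance threshold through the injected side and had to read higher there.

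Auxiliary calcium channel subunits set surface expression and gating. Cacna2d2, a target of gabapentin, read 58.2, 43.6 and 57.4 on injected and 72.0, 67.7 and 67.8 on uninjected sides, without overlap, for a change of -0.39 ± 0.11 (SE, limma adjusted p = 0.0965). Cacnb2, with an 8-base match, read 49.5, 36.6 and 40.5 against 55.9, 51.6 and 56.6, without overlap, and changed by -0.38 ± 0.11 (SE, limma adjusted p = 0.0966). In GFP mice these changes were 0.03 ± 0.06 and -0.09 ± 0.07. Cacnb4 changed by -0.17 ± 0.07, and Cacng8, an auxiliary subunit of AMPA receptors more than of calcium channels, by -0.28 ± 0.09 (limma adjusted p = 0.114). Cacna2d1 had its clearer shift in GFP mice. It read 18.4, 14.8, 18.8 and 19.0 on injected and 20.6, 19.6, 23.4, 24.8 and 22.3 on uninjected sides, without overlap, a change of -0.32 ± 0.09 that was not called (limma adjusted p = 0.212). In miR-181 mice its change was -0.15 ± 0.07.

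In GFP mice 0 of 110 members were called lower and 0 higher by limma, where 0.0131% and 1.34% of 15274 genes were. At an unadjusted p under 0.05, 6 were lower and 4 higher, beside 2.68% and 6.84% of all genes. The p-values of the authors' deposited table, of 2 kinds and adjusted over the same genes, called 0 members lower by either, where 0.0203% and 0% of all genes were. They called 1 (Kcnk6) higher by the first kind and 0 by the second, where 2.04% and 1.23% were. Fitted changes were below 0 for 75 members, beside 48.2% of all genes, with a median of -0.05. The groups did not overlap for 3 members lower (Cacna2d1, Kcnc1 and Kcnh8), where 1% of all genes did so. Of these, Kcnh8 had reached the abundance threshold through the uninjected side. The groups also did not overlap for 2 members higher (Kcnk6 and Kcnd1, the latter named after its values were seen), where 3.29% did so.

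The difference itself was tested as the change of 3 miR-181 mice minus that of 4 GFP mice. No member was called by limma (0 of 110), where 0.0337% of 14824 genes were. At an unadjusted p under 0.05, 27 members were more negative in miR-181 mice and 1 more positive (Cacna1s), beside 8.25% and 7.05% of all genes. Cacna1s had reached the abundance threshold through the injected side in both tables. The median difference over members was -0.14. Every miR-181 mouse lay below every GFP mouse for 26 members, where 7.94% of all genes did so, and above for 3, where 6.83% did. The difference was -0.38 ± 0.07 (SE, limma adjusted p = 0.0968) for Hcn2 and -0.61 ± 0.13 (SE, limma adjusted p = 0.115) for Kcnab3. Without miR-181 mouse 1, which had the smallest median decrease, 7 members were called for the difference, among them Kcnab2, Kcnab3, Kcng4, Kcnj6, Scn4b and Scn8a. That fit dropped 1 of the 3 miR-181 mice. Its share of all genes called is not given here, so the 7 cannot be set beside a background.

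**Figure D3:**
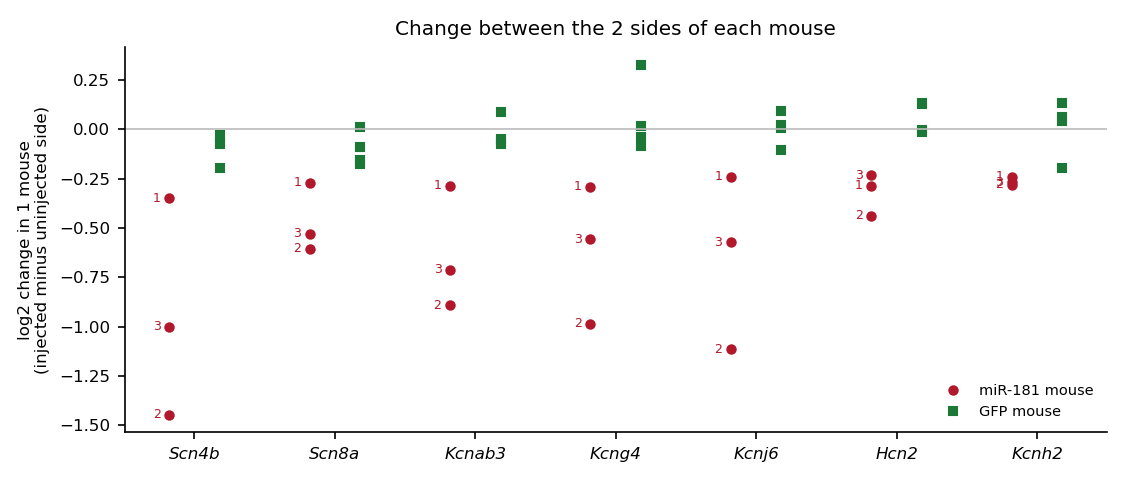
Log2 change between the injected and uninjected side of each mouse for 7 channel genes, with 3 miR-181 mice (circles, numbered) and 4 GFP mice (squares). Mouse 2 has the largest decrease and mouse 1 the smallest for Scn4b, from -0.35 to -1.45, and for Kcnj6, from -0.24 to -1.11, and Kcnh2 varies little, from -0.24 to -0.28.

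Each of the 6 calls rested on 3 against 3 libraries. Leaving out any 1 uninjected library, or the injected library of mouse 3, ended all 6 calls; without the latter 1 other member, Cacna1i, was called. The highest adjusted p over the 6 fits was 0.110 for Hcn2, 0.146 for Kcnh2, 0.157 for Kcnab3, 0.160 for Scn8a and 0.171 for Kcng4 (limma). Without the library of injected mouse 2, which stood apart in neuron and microglial markers, 3 members were called, and Scn8a, Kcnab3 and Kcnh2 were not. Without the library of injected mouse 1, 14 were called lower, with Kcnh2 not among them. The shares of all genes called with a library left out are not given here, so these counts have no background beside them. Without the intensity trend, or without the abundance filter, 1 member was called, and Hcn2, Kcnh2, Kcnab3, Kcng4 and Scn8a were not. With libraries centred on pan-neuronal markers 4 were called, among them Kcnab3, Kcng4 and Scn4b, and the calls of Hcn2, Kcnh2 and Scn8a were lost. Over all genes 91 were called lower under that centring, in place of 230. The p-values of the authors' deposited table, adjusted over the same genes, called 26 members lower by the first kind and 9 by the second, where 5.11% and 1.96% of all genes were. They called 2 higher (Cacna1s and Kcnk6) and 0, where 7.23% and 4.81% were. Of these, Cacna1s had reached the abundance threshold through the injected side, so its direction was set by its selection. Among the members called lower by both kinds were Kcnh1, Kcnma1 and Kcnq5, which limma did not call.

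A 3' UTR match to the miR-181 seed was held by 38 of 110 members (34.5%), and by 3560 of 14335 tested genes with an annotated UTR (24.8%). Channel UTRs were longer, with a median of 2183 bases against 1364, which gives more room for a match. The median UTR was 3895 bases for members with a match and 1498 for members without one. The 8-base match was held by 9 members (8.18%) and 6.36% of tested genes. Members with a match had a median change of -0.27 in miR-181 mice and -0.08 in GFP mice. For members without one the medians were -0.12 and -0.02. Over all genes tested in miR-181 mice the medians were -0.05 with a match and 0.02 without. Over all genes tested in GFP mice they were -0.02 and 0.01. Among the 38 members with a match, 35 were fitted below 0 and 23 were lower at an unadjusted p under 0.05, and among the 72 without, 56 and 19. Over all tested genes with an annotated UTR, 2164 of the 3560 with a match were fitted below 0 and 697 were lower at an unadjusted p under 0.05, and of the 10775 without one, 4866 and 882. In GFP mice 2059 of 3485 such genes with a match and 4631 of 10508 without one were fitted below 0. The gap between genes with and without a match was thus also present over all genes, in both sets of mice. The 9 members with an 8-base match, among them Cacna1b, Cacnb2, Hcn2, Kcnh1, Kcnj6, Kcnq5 and Scn3b, had a median of -0.38, with 8 of 9 fitted below 0 and Kcnq5 and Kcnj6 lowest at -0.64. Of all 110 members 91 were fitted below 0. The 912 tested genes with an 8-base match had a median of -0.09 in miR-181 mice, with 623 fitted below 0. Of the 6 called genes 2 hold a match. Hcn2 holds 1 site and Scn8a 2, printed above, while Kcnh2, Kcnab3 and Kcng4 hold none in the UTR searched. A match is a description of letters and not evidence of binding.

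**Figure D4:**
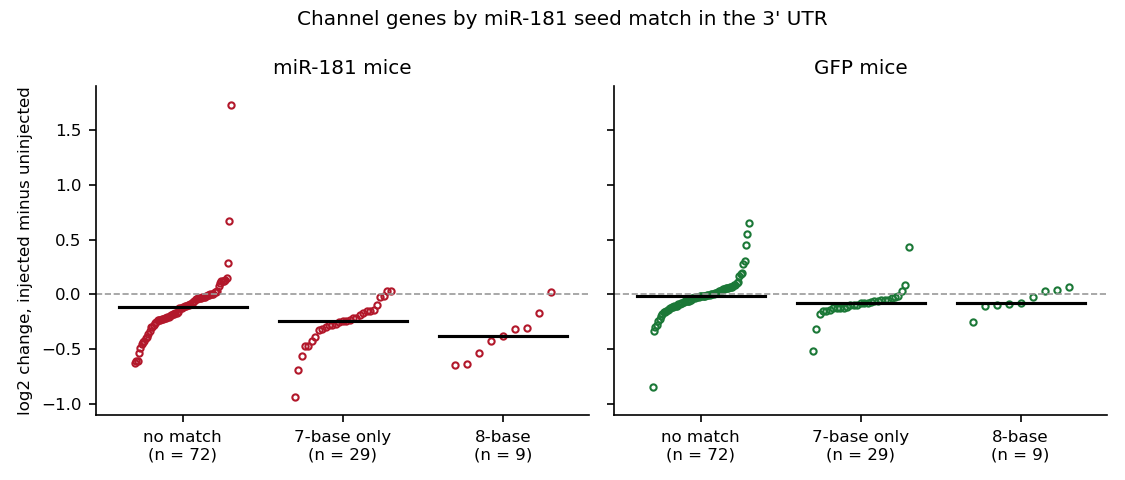
Log2 change, injected minus uninjected, of channel genes with no miR-181 seed match (72), a 7-base match only (29) or an 8-base match (9) in the 3' UTR, in miR-181 mice (left) and GFP mice (right). Each circle is a gene, solid lines are medians and the dashed line is the median of all genes tested; the 8-base median is -0.38 on the left and -0.08 on the right.

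Genes that work with these channels were taken as 3 lists. Of 20 partners and scaffolds of channels at the axon initial segment and node, 1 was called lower in miR-181 mice, beside 1.49% of all genes. It was Cntnap1 (Caspr), which flanks the nodal sodium channels, with 85.9 ± 7.49 (SD, n = 3) against 108 ± 3.42 (SD, n = 3) and a change of -0.34 ± 0.07 (limma adjusted p = 0.0410). The list's median was -0.21, and Ank3, the ankyrin that anchors sodium channels, changed by -0.22 ± 0.08 (limma adjusted p = 0.152). Of 18 pumps and exchangers that maintain the gradients channels use, 15 were fitted below 0 in miR-181 mice and 13 in GFP mice. The shares over all genes were 49.2% and 48.2%. By limma 4 were called lower in miR-181 mice, where 1.49% of all genes were. Among them were the sodium pump subunit Atp1b1 (-0.71 ± 0.15, limma adjusted p = 0.0432) and the calcium pumps Atp2b2 (-0.50 ± 0.09, limma adjusted p = 0.0238) and Atp2b3 (-0.54 ± 0.12, limma adjusted p = 0.0493). In GFP mice 0 genes of these lists were called by limma, 0 at an unadjusted p under 0.05, and the medians were -0.05 and -0.04.

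The 33 cation channel genes outside the 4 subfamilies include TRP, P2X, ryanodine and Orai channels. In miR-181 mice 0 were called lower and 3 higher by limma, where 1.49% and 4.39% of all genes were. At an unadjusted p under 0.05, 6 were lower and 3 higher, beside 10.7% and 12.8% of all genes. The median of -0.05 turned to 0.00 when libraries were centred on pan-neuronal markers. P2rx4, an ATP-gated channel prominent in microglia, rose by 0.53 ± 0.08 (limma adjusted p = 0.0139), and Orai3, a store-operated calcium channel, by 0.42 ± 0.09 (limma adjusted p = 0.0453). Piezo1, a mechanically gated channel, rose by 0.80 ± 0.17 (limma adjusted p = 0.0436) in miR-181 mice and by 0.80 in GFP mice (limma adjusted p = 0.0326). The rest of the list was not called in either set.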

How the data were processed

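Substantia nigra RNA was sequenced from polyA libraries, with strand kept, per the labels' protocols. Reads were quantified against GRCm38 with kallisto 0.43.1 and sleuth 0.30.0, per the submitters' processing notes. From their sums, the deposited signal values were taken to be TPM over a size factor; the authors normalized the 2 tables separately. Depth per library cannot be recovered from such values, so no counting intervals are given. The authors' deposited p-values (2 kinds) and natural log coefficients served as an alternative, with tests and log base unnamed in the headers. The other deposited model scores (errors, variances, statistics) are the authors' own and were not used. The 395 rows repeating a symbol's values were left out.

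The limma package, version 3.58.1 in R 4.3.3, was applied to log2(value + 0.5) (intensity trend, mean of at least 1, Benjamini-Hochberg), checked on simulated data. A change on this scale understates that of low genes. Both sides of a mouse come from 1 animal per the labels, so mouse numbers pair libraries. Between its sides, deviations from the group mean correlated at 0.140 to 0.257 (miR-181 set) and at 0.0177 to 0.192 (GFP set). Between sides of different mice they correlated at -0.158 to -0.0182 (miR-181 set) and at -0.108 to 0.0488 (GFP set). In the GFP set these ranges overlap. The main fit within each set did not use the pairing. GFP mouse 5 entered neither the difference nor the block. Members, lists and tests were chosen with earlier results of these data known. For 5 members the mean of the injected or the uninjected side lay below 1 in a table. The direction of their change there was partly set by selection. The naming rule took called members, those with the smallest p in each subfamily and a set list, 34 in all, of which those described were selected with their values seen; 19 more were added after their values were seen. Some genes are counted in the totals but not reported here by name. UTR matches used GENCODE M21 with Python 3.11.15 and pandas 2.3.3. Alternatives were other pseudocounts, filters, scalings, no trend, mouse as a block, the authors' p-values and leaving out each library or mouse.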

Additional observations from a re-analysis of the deposited data

Results flagged for a closer look

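In groups of 4 and 5 libraries, 6 of 106 were marked because 1 library stood far from the others, and chance marks about 1 in 20 groups. All lie in the GFP table, because groups of 3 were not tested. GFP injected mouse 2 held 2 of them. Cacna2d1 read 14.8 there against 18.4 to 19.0 in the other injected libraries and Hcn2 read 184 against 159 to 162. Kcnk6 read 4.76 in GFP injected mouse 1 against 3.32 to 3.51, and 2.65 on the uninjected side of GFP mouse 4 against 1.94 to 2.14. Hcn4 read 11.5 on that same uninjected side against 8.32 to 9.10. Kcnh8 read 3.03 on the uninjected side of GFP mouse 1 against 0.789 to 1.34. Pituitary markers summed to 50092 in the uninjected library of GFP mouse 1 and to between 3.00 and 18.7 in the other uninjected GFP libraries; their part in the Kcnh8 value was not tested. Without GFP injected mouse 2, 1 member was called lower on the GFP side in place of 0.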

How the results depend on the processing

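The count of 6 members lower on the miR-181 side was 11 with median centring, 9 with quantile normalization, 4 with centring on pan-neuronal markers, 7 with a pseudocount of 0.1, and 1 without the filter or without the intensity trend. Over all genes the count called lower was 230 in the main fit. It was 468 with median centring, 281 with quantile normalization and 91 with centring on pan-neuronal markers. The authors' deposited p-values gave 26 and 9 members lower, where 5.11% and 1.96% of all genes were. Leaving out a library or a mouse gave 0 to 14, and leaving out both sides of 1 mouse was chosen after seeing the data. With mouse as a block the count was 6 lower, of which 4, among them Hcn2, Kcnh2 and Scn8a, were shared with the unpaired fit, and 1 higher (Cacna1s) in place of 0. Higher members numbered 2 (Cacna1s and Kcnk6) by 1 kind of the authors' deposited p-values and 0 to 2 when a library was left out. Cacna1s had reached the abundance threshold through the injected side, so its direction was set by its selection. In GFP mice 1 was higher (Kcnk6) without the trend and by 1 kind of the authors' p-values, and 0 to 1 lower when a library was left out. The difference called 0 to 7 when a mouse was left out. The shares over all genes in the fits with a library or a mouse left out are not given here. The Kcn median was -0.26 with median centring; the Cacn median was -0.23 with it, -0.11 with pan-neuronal centring and -0.18 to -0.10 with libraries left out. With 8-base matches only, 9 members held a match in place of 38.

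Signs turned for values near 0. In miR-181 mice median centring and quantile normalization gave -0.0363 and -0.0247 for Cacna1d, -0.0612 and -0.0110 for Cacna1g, and -0.0306 and -0.0690 for Hcn4. Pan-neuronal centring gave 0.0366 for Kcnk13, and the authors' deposited coefficient, as log2, gave -0.000752 for Cacna1g. With single libraries left out, changes ran from -0.0343 to 0.107 for Cacna1d, -0.159 to 0.162 for Cacna1g, -0.0261 to 0.104 for Hcn4 and -0.0880 to 0.0657 for Kcnk13. In GFP mice they ran from -0.0276 to 0.0146 for Kcnab3, -0.0261 to 0.162 for Kcng4 and -0.00411 to 0.0734 for Kcnh2. The causes were not tested.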
